A study of Rattus norvegicus with 10 samples.

Results

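Of 10 marker genes of endothelial cells, 6 could be followed by their Ensembl identifiers in the 32622 genes counted in cultured rat myoblasts: *Kdr*, *Tie1*, *Cdh5*, *Esam*, *Vwf* and *Emcn*. The genes were taken from a set of 10 symbols that also holds *Pecam1*, *Tek*, *Cldn5* and *Egfl7*, and the members are those with a row in the study's own list of differentially expressed genes (DEGs), which pairs identifiers with symbols. The members were thus selected on measured values, namely the fold change and adjusted p of a suspension group against Control, and these contrasts are described here with no test. *Kdr* had its rows at HS1 and HS3, *Cdh5* and *Vwf* at HS7 and HS14, and *Tie1*, *Esam* and *Emcn* at HS14 alone. The other 4 symbols had no row, were not tied to an identifier and were not analysed here.

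The cells were prepared as satellite cells, the stem cells of skeletal muscle, from the soleus of both hindlimbs of 3-month-old male Wistar rats. The digested muscle was first cultured and then pre-plated, a step in which fast-adhering cells are removed. After pre-plating the cells were cultured as myoblasts for 1 day. In the paper's staining of Control, HS1 and HS7 cultures, not every cell held PAX7, a marker of satellite cells. No sorting on an endothelial or myogenic surface marker was described. The groups were vivarium Control rats and rats kept in hindlimb suspension (HS), which takes the load off the soleus, for 1, 3, 7 or 14 days (HS1, HS3, HS7 and HS14). Each group had 2 libraries, and nothing in the sources used here says whether these came from separate animals or cultures, so that the errors given cover only the spread between these libraries.

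Endothelial cells line blood vessels. They sense VEGF through the receptor tyrosine kinase KDR and angiopoietins through the TIE receptors, hold to each other through junction proteins such as VE-cadherin (CDH5) and ESAM, store von Willebrand factor (VWF) in Weibel-Palade bodies, and carry sialomucins such as endomucin (EMCN) on their surface. Skeletal muscle is rich in capillaries, and satellite cells lie close to them.

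The counts of a library summed to between 20200972 and 28175200. Levels are given in CPM, counts divided by the TMM-scaled library size, and 3 counts, taken as the smallest detectable level, corresponded to between 0.104 and 0.152 CPM. Between 69.4% and 72.0% of the counts from 1 to 20 were even numbers in each library, which is how counts look when both reads of a pair are counted. Counting intervals are therefore also given for halved counts. Transcript lengths were not used here, so levels are compared between groups and not between genes. In bulk RNA more cells of a type and more RNA per cell cannot be told apart.

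The members fell into a set of 5 genes that were lowest in Control or HS1 and highest in HS14, and *Kdr*, which was lowest in HS1 and highest in HS3. The summed level of *Tie1*, *Cdh5*, *Esam*, *Vwf* and *Emcn* was 0.632 and 1.44 CPM in the Control libraries, 0.817 and 0.697 CPM in HS1, and 1.32 and 1.59 CPM in HS3. It reached 8.39 and 6.08 CPM in HS7 and 13.7 and 12.1 CPM in HS14. Every HS7 and HS14 library thus lay above the 6 libraries of Control, HS1 and HS3. The 5 genes were chosen for being high at HS14 against Control, so this order describes them and is no test. Leaving out every contrast that chose a gene left 12 combinations of a gene and a pair of suspension times. Of these, 6 passed the filter on low counts. With no filter 3 of the 12 were called, which required an adjusted p under 0.01 with a fold change past 1.5 on the log2 scale. They were *Tie1* in HS7 against HS1 and HS3, and *Emcn* in HS7 against HS1. The same were called with the filter, which they passed only through their HS7 libraries. Over all genes and in either direction, the fit with no filter called 750 in HS7 against HS1 and 708 in HS7 against HS3. With the filter, 3.85% of 13077 genes were called higher in HS7 than in HS1, and 1.63% of 13164 higher than in HS3.

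**Figure D1:**
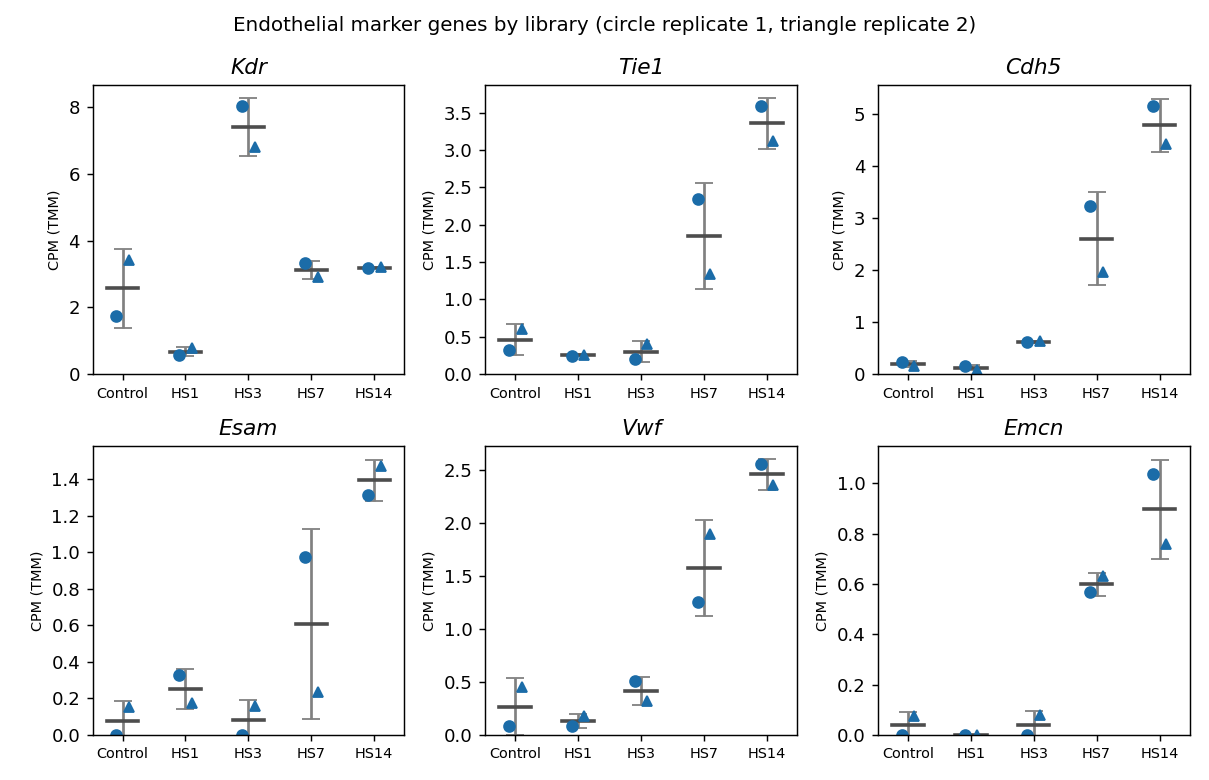
Level of each member in CPM (TMM-scaled, y axis from 0) in the 10 libraries by group (circle, replicate 1; triangle, replicate 2), with a horizontal line for the mean of the 2 libraries and bars for their SD, cut at 0 where they would pass below it. *Tie1*, *Cdh5*, *Esam*, *Vwf* and *Emcn* were highest in HS14, whereas *Kdr* peaked in HS3 at 8.03 and 6.80 CPM.

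The RefSeq promoter table of the rat assembly GRCr8 matched 3 of the 6 members, *Kdr*, *Tie1* and *Emcn*, and not *Cdh5*, *Esam* and *Vwf*. They are shown because *Tie1* and *Emcn* were highest in HS14 and *Kdr* in HS3. The letters run 5′ to 3′ on the strand of the gene, up to the base before the outermost RefSeq start of the gene. Capitals mark GGAA or TTCC, the core that ETS factors bind, on either strand. The windows are chr14:32571813-32572030 (plus strand) for *Kdr*, chr5:137305048-137305231 (minus strand) for *Tie1* and chr2:228564289-228564444 (plus strand) for *Emcn*.
Kdr: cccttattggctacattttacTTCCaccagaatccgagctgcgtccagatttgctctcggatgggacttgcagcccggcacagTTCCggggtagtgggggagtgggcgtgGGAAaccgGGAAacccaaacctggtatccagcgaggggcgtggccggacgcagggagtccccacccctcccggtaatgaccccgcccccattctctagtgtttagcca
Tie1: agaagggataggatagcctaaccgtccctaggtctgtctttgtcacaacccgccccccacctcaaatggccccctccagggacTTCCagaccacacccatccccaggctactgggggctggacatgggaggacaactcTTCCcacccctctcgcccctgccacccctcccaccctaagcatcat
Emcn: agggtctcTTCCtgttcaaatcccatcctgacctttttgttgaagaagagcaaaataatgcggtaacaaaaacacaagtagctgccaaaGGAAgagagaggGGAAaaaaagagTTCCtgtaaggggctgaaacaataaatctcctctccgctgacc

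ETS factors such as ERG are known regulators of endothelial genes. Over the whole window of 300 bases around the start, the ETS core occurred 5 times in *Kdr*, 4 times in *Tie1* and 8 times in *Emcn*. At least 1 match was present in 95.8% of the 33469 windows of the table, with a median of 3. The GATA core (GATAA or TTATC) occurred once in *Emcn* and not in *Kdr* or *Tie1*, against 26.5% of all windows with a match. The SOX core (ACAAT or ATTGT) also occurred once in *Emcn* alone, against 33.7% of all windows. These matches describe the letters of the windows.

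*Kdr* (ENSRNOG00000046829) encodes VEGF receptor 2, the main signalling receptor for VEGF-A on endothelial cells. Its level was 1.74 and 3.41 CPM in the Control libraries, from 44 and 90 counts. It was 0.572 and 0.784 CPM in HS1, 8.03 and 6.80 CPM in HS3, 3.32 and 2.92 CPM in HS7, and 3.18 and 3.20 CPM in HS14. Both HS3 libraries stood above all others and both HS1 libraries below all others, while Control, HS7 and HS14 overlapped. The Control libraries differed most from each other, with a mean of 2.58 ± 1.18 CPM (SD, n = 2).

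The log2 fold change of *Kdr* against Control was -1.93 (standard error 0.41) in HS1 and 1.51 (standard error 0.27) in HS3. These contrasts chose the gene and carry no test here. Without Control replicate 1, the values were -2.33 and 1.105, and without Control replicate 2 they were -1.36 and 2.08. In HS7 and HS14 the gene stood 0.28 (standard error 0.32) and 0.30 (standard error 0.28) above Control on the log2 scale, and the direction depended on the Control library. These values were -0.13 and -0.10 without Control replicate 1, and 0.84 and 0.87 without Control replicate 2. The pair of times in which the choice of *Kdr* played no part was HS14 against HS7. There the log2 fold change was 0.039 (standard error 0.26), with a 95% interval from -0.51 to 0.59 (edgeR, quasi-likelihood, Benjamini-Hochberg adjusted p = 0.927). The same test called 2.04% of the 13109 genes in that comparison. Differences inside that interval remain possible with these libraries.

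*Tie1* (ENSRNOG00000020173) encodes an orphan receptor of the angiopoietin system that works together with TEK. Its level was 0.316 and 0.607 CPM in Control, 0.245 and 0.261 CPM in HS1, and 0.203 and 0.397 CPM in HS3. In HS7 it was 2.35 and 1.34 CPM, and in HS14 3.60 and 3.12 CPM. The HS7 libraries lay above all libraries of Control, HS1 and HS3, and the HS14 libraries above those of HS7. The levels in Control and HS3 overlapped, as did those in HS3 and HS1.

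*Tie1* was listed at HS14 alone, so that comparisons among HS1, HS3 and HS7 were open to a test. *Tie1* was higher in HS7 than in HS1 by 2.83 on the log2 scale (standard error 0.54, 95% interval 1.67 to 3.98, edgeR adjusted p = 0.000562), and higher in both HS7 libraries than in either HS1 library. In that comparison 3.85% of the 13077 genes tested were called higher. Against HS3 the gene was higher by 2.54 (standard error 0.55, 95% interval 1.36 to 3.72, edgeR adjusted p = 0.00246), where 1.63% of 13164 genes were called higher. *Tie1* passed the filter on low counts through its HS7 libraries, which alone were high enough. With no filter the adjusted p in edgeR was 3.08e-06 against HS1 and 3.11e-05 against HS3. The standard errors were then 0.560 and 0.550, no smaller than with the filter, so the smaller p is not stronger support. The call against HS1 was lost without HS7 replicate 1 (log2 fold change 2.37, edgeR adjusted p = 0.0105). The call against HS3 was lost without HS7 replicate 1 (2.09, edgeR adjusted p = 0.0275), without HS3 replicate 1 (2.18, adjusted p = 0.0225) and without HS3 replicate 2 (3.13, adjusted p = 0.0119).

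Between HS3 and HS1 the counts of *Tie1* were 4 and 10 against 6 and 6, and the gene did not pass the filter. With no filter the log2 fold change was 0.27 (standard error 1.04, edgeR adjusted p = 0.875), so a difference was not detectable at this depth. Against Control, the description gave 1.98 (standard error 0.49) in HS7 and 2.84 (standard error 0.39) in HS14. A row also required an adjusted p under 0.01, so the size of the change alone did not set the rows. *Tie1* at HS7, *Cdh5* at HS3, at 1.65 (standard error 0.66), and *Emcn* at HS7, at 3.80 (standard error 0.96), had no row. *Kdr* at HS3 had a row at the smallest change, 1.51.

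*Cdh5* (ENSRNOG00000013324) encodes VE-cadherin, the adhesion molecule of endothelial adherens junctions. Its level was 0.237 and 0.152 CPM in Control, from 6 and 4 counts, and 0.163 and 0.0871 CPM in HS1. It was 0.610 and 0.636 CPM in HS3, 3.24 and 1.97 CPM in HS7, and 5.15 and 4.42 CPM in HS14. Each of HS3, HS7 and HS14 lay clear of the group before it, and only Control and HS1 overlapped.

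HS3 against HS1 was the pair in which the choice of *Cdh5* played no part. The gene was higher in both HS3 libraries, with a log2 fold change of 2.26 (standard error 0.81, 95% interval 0.61 to 3.91), but it was not called (edgeR adjusted p = 0.0249). The same rule called 5.69% of the 13008 genes higher in HS3. The counts behind it were 12 and 16 against 4 and 2, so *Cdh5* passed the filter on low counts only through its HS3 libraries. With no filter the log2 fold change was 2.26 with a larger standard error, 0.97. With all 10 libraries in one fit the adjusted p in edgeR was 0.00581 and the gene was called, while with no filter it was 0.0642 and with DESeq2 0.137. Against Control, with no test, *Cdh5* stood 3.72 (standard error 0.51) higher in HS7 and 4.59 (standard error 0.40) higher in HS14 on the log2 scale. In summed counts this was 254 in HS14 against 10 in Control, a ratio of 24.9 with a 95% exact interval from 13.3 to 52.6, or from 10.4 to 78.0 with halved counts. These intervals cover counting error only.

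*Esam* (ENSRNOG00000033217) encodes an immunoglobulin-like molecule of endothelial tight junctions. Control libraries held 0 and 4 counts of it, HS1 libraries 8 and 4, and HS3 libraries 0 and 4. There were 24 and 6 counts in HS7, and 38 and 35 counts in HS14. The HS14 levels were 1.31 and 1.47 CPM, above all other libraries, and the HS7 levels were 0.973 and 0.237 CPM. HS7 overlapped HS1, and HS3 overlapped Control. *Esam* was the member whose HS7 libraries differed most in relation to their mean, 0.605 ± 0.520 CPM (SD, n = 2).

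The gene passed the filter in none of the comparisons among HS1, HS3 and HS7. With no filter its log2 fold change was 2.703 between HS7 and HS3 (standard error 1.04, edgeR adjusted p = 0.0350) and 1.22 between HS7 and HS1 (standard error 0.81, edgeR adjusted p = 0.258). Between HS3 and HS1 it was -1.48 (standard error 1.43, edgeR adjusted p = 0.509). None of these was called. The value against Control in HS14 was 4.08 (standard error 0.72). It depended on 1 Control library, being 3.15 without Control replicate 1 and 8.18 without Control replicate 2, which leaves a Control of 0 counts, so that this last value is set by the prior count.

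*Vwf* (ENSRNOG00000019689) encodes the large adhesive protein that binds platelets at sites of injury and is made by endothelial cells and megakaryocytes. Its level was 0.0791 and 0.455 CPM in Control, from 2 and 12 counts, and 0.0817 and 0.174 CPM in HS1. It was 0.508 and 0.318 CPM in HS3, 1.26 and 1.89 CPM in HS7, and 2.56 and 2.36 CPM in HS14. HS7 lay above the 3 lower groups and HS14 above HS7, whereas HS3, Control and HS1 came next in the order of their means and neighbours overlapped.

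For *Vwf* the open pair was HS3 against HS1, with 10 and 8 counts against 2 and 4. The gene did not pass the filter, and with no filter the log2 fold change was 1.65 (standard error 1.14, edgeR adjusted p = 0.314). Against Control it stood 2.53 (standard error 0.60) higher in HS7 and 3.16 (standard error 0.49) higher in HS14, with no test. Without Control replicate 1 these values were 1.78 and 2.42, and without Control replicate 2 they were 4.24 and 4.87.

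*Emcn* (ENSRNOG00000022910) encodes endomucin, a sialomucin of capillary and venous endothelium. Control libraries held 0 and 2 counts of it, HS1 libraries 0 and 0, and HS3 libraries 0 and 2. There were 14 and 16 counts in HS7, and 30 and 18 counts in HS14. A count of 3 would have been 0.123 and 0.131 CPM in the HS1 libraries. The HS7 levels were 0.567 and 0.632 CPM and the HS14 levels 1.04 and 0.758 CPM. All 4 libraries of HS7 and HS14 lay above the detectable level, and the other 6 lay below it.

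*Emcn* was listed at HS14 alone and was higher in HS7 than in HS1 (edgeR adjusted p = 0.000428 with no filter and 0.00136 with it). With the filter, 3.85% of the 13077 genes in that comparison were called higher in HS7. The ratio for *Emcn* was 4.59 when HS1 is set at 0.131 CPM, 3 counts in its smaller library, with no error on the HS7 counts. With HS1 at its observed 0 counts, the 95% exact interval of the ratio of summed counts began at 7.25. With halved counts it began at 3.40. The 2 measures set HS1 at different levels and are not to be compared. The call was lost without HS1 replicate 1 (edgeR adjusted p = 0.0177) and without HS1 replicate 2 (edgeR adjusted p = 0.0173). Between HS7 and HS3 the log2 fold change was 3.59 (standard error 0.98, 95% interval 1.496 to 5.690), just short of a call (edgeR adjusted p = 0.0109). In that pair 30 counts stood against 2, a ratio of 13.5 with a 95% exact interval from 3.41 to 116.2. With halved counts this interval ran from 2.07 to 566.2. Like *Tie1*, *Emcn* passed the filter through its HS7 libraries. Against Control in HS14 there were 48 counts against 2, a ratio of 23.5 with a 95% exact interval from 6.17 to 199.9. With halved counts it ran from 3.84 to 967.9. Between HS3 and HS1 both groups were under 3 counts per library, and no fold is given.

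**Figure D2:**
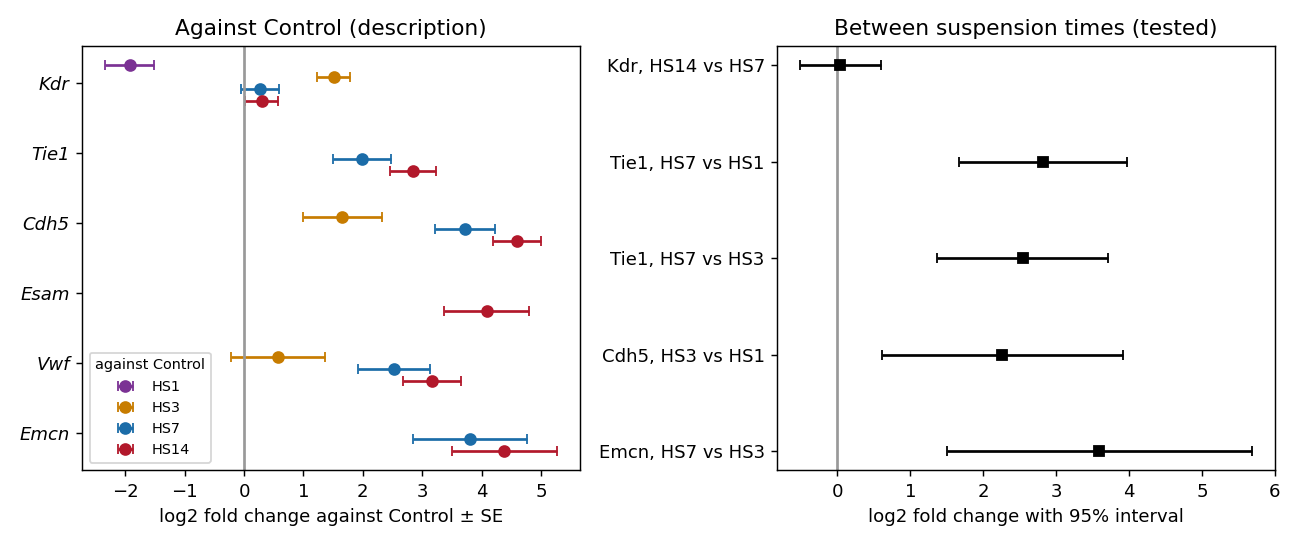
Left, log2 fold change of each member against Control with its standard error for the 15 values that passed the filter on low counts, with no test. Right, the 5 tested log2 fold changes between suspension times with 95% intervals, of which those of *Tie1* were called; *Emcn* in HS7 against HS1 is left out because HS1 had 0 counts.

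Against Control, both libraries of HS14 lay above both Control libraries for 5 of the 6 members, and the same held for 5 members in HS7. Over all genes tested, this was the case for 35.8% in HS14 and 36.5% in HS7. In HS3 both libraries lay above both Control libraries for 2 members, *Kdr* and *Cdh5* (29.8% of all genes). In HS1 they lay below for 2 members, *Kdr* and *Tie1* (31.0% of genes tested), and above for *Esam* (30.6% of genes tested). All shares here cover only genes past the filter on low counts in that comparison. *Tie1* in HS1 and *Esam* in HS1 and HS7 did not pass it. Since the members were selected in these contrasts, the counts describe them only. From HS7 to HS14, 5 members were higher in both HS14 libraries (33.1% of all genes), by between 0.59 (*Emcn*) and 1.21 (*Esam*) on the log2 scale, which was again a contrast that shares the libraries of the rule.

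In order to see which genes followed each member, the root mean square difference between log2 CPM profiles, each centred on its mean over the 10 libraries, was taken over the genes with a symbol. These genes were all on the study's DEG list. The genes nearest to *Tie1* were *Emcn*, at 0.344 log2 units, *Angpt2*, which encodes a ligand of TEK (0.432), and *Il11*, which encodes a cytokine (0.490). Over its 768 candidates the median difference from *Tie1* was 1.80. *Fgd5*, which encodes a guanine nucleotide exchange factor of endothelial cells, was nearest to *Cdh5* (0.692) and to *Vwf* (0.437). *Emcn* stood second for both (0.693 and 0.527). Several of these genes had 0 counts in many libraries, where the profile is set by the prior count of 2.

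The nearest genes of *Esam* were *Nos3*, which encodes the endothelial nitric oxide synthase, at 0.623, *Adgrf5*, which encodes an adhesion G protein-coupled receptor (0.668), and *Slc29a4*, which encodes a membrane transporter (0.678). *Kdr* had none of the other members among its nearest genes. They were *Galnt16* (0.285), which encodes a glycosyltransferase, *F13a1* (0.322), which encodes the A subunit of coagulation factor XIII, and *Col15a1* (0.332), which encodes a basement membrane collagen. The median over its candidates was 1.13. *Kdr* differed from the 5 other members by 1.35 (*Vwf*) to 1.88 (*Esam*), whereas those 5 differed among themselves by 0.344 (*Tie1* and *Emcn*) to 1.25 (*Cdh5* and *Esam*).

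**Figure D3:**
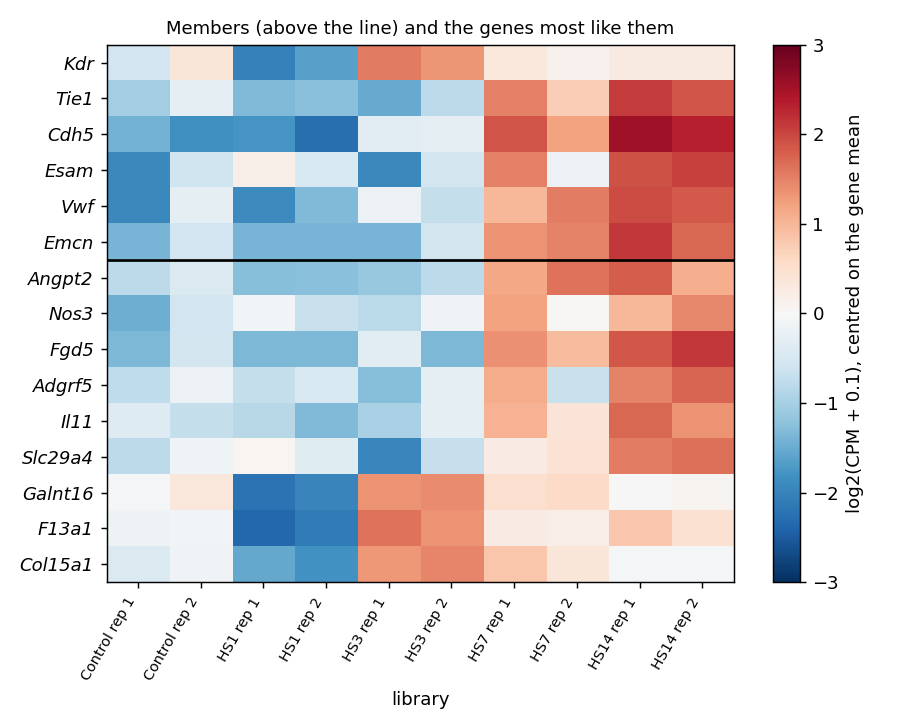
Colour gives log2(CPM + 0.1) centred on the mean of each gene over the 10 libraries (columns), for the 6 members above the line and 9 of the genes most like them below it. *Kdr* shares its low HS1 and high HS3 columns with *Galnt16*, *F13a1* and *Col15a1*, and the other members are high in HS7 and HS14.

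Other genes of the vessel wall were taken from lists of endothelial markers, VEGF and angiopoietin ligands and receptors, junction genes and lymphatic markers. Of these lists 7 further genes had a symbol, and so a row in the DEG list. *Angpt2* was at 0.158 and 0.228 CPM in Control, 0.0817 and 0.0871 CPM in HS1, 0.102 and 0.159 CPM in HS3, 0.892 and 1.26 CPM in HS7, and 1.45 and 0.842 CPM in HS14. The HS7 and HS14 libraries all lay above the other 6. *Angpt2* had 22 and 32 counts in HS7 against 2 and 2 in HS1 and 2 and 4 in HS3, so it passed the filter only through HS7. With no filter it was higher in HS7 than in HS1 by 3.58 (standard error 0.82, edgeR adjusted p = 7.46e-05) and than in HS3 by 2.95 (standard error 0.78, edgeR adjusted p = 0.000901). With the filter the adjusted p in edgeR was 0.000720 and 0.00334, where 3.85% and 1.63% of genes were called higher.

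*Nos3* was higher in both HS7 libraries than in HS1 and HS3, by 1.20 (standard error 0.57) and 1.27 (standard error 0.59), but was not called (edgeR adjusted p = 0.0960 and 0.116). *Rasip1*, whose product is needed for vessels to form a lumen, was at 0.203 and 0.238 CPM in HS3 and at 2.63 and 2.61 CPM in HS14. It could not be told apart between HS7 and HS1 (log2 fold change 0.18, standard error 0.35, edgeR adjusted p = 0.698). *Jam2*, a junction gene, was at 11.3 and 4.26 CPM in HS7 and at 2.21 and 1.68 CPM in HS14, unlike *Cdh5* and *Esam*, which were highest there.

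Among VEGF genes, *Vegfd*, which encodes a ligand of KDR and FLT4, was at 66.5 and 64.7 CPM in Control, 6.21 and 4.79 CPM in HS1, and 154.3 and 144.1 CPM in HS3. It was thus lowest in HS1 and highest in HS3, as *Kdr* was. It fell from HS3 to HS7 by 2.11 on the log2 scale (standard error 0.10, edgeR adjusted p = 4.62e-09), where 3.28% of genes were called lower. *Eng*, which encodes a TGF-beta co-receptor of endothelium, was at 33.6 and 33.1 CPM in HS1 and at 133.0 and 150.4 CPM in HS3, again the lowest and the highest group. *Eng* fell by 1.51 from HS3 to HS7 (standard error 0.11, edgeR adjusted p = 5.12e-07). It was at 92.1 and 99.3 CPM in Control, 56.5 and 44.4 CPM in HS7, and 48.4 and 47.5 CPM in HS14. Unlike the 5 members highest in HS14, *Eng* was thus lower in HS7 and HS14 than in Control. Of 28 endothelial markers 9 had a symbol, and most of their sum was *Eng*. This sum was 95.4 to 106.2 CPM in Control, 36.4 to 37.2 CPM in HS1 and 142.8 to 159.6 CPM in HS3. It was 56.0 to 71.4 CPM in HS7 and 67.2 to 69.1 CPM in HS14. *Flt4*, the VEGF receptor of lymphatic endothelium, was at 6.92 and 6.60 CPM in Control, overlapping HS1 at 6.37 and 6.75 CPM, and was lowest in HS7, at 1.62 and 1.18 CPM.

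**Figure D4:**
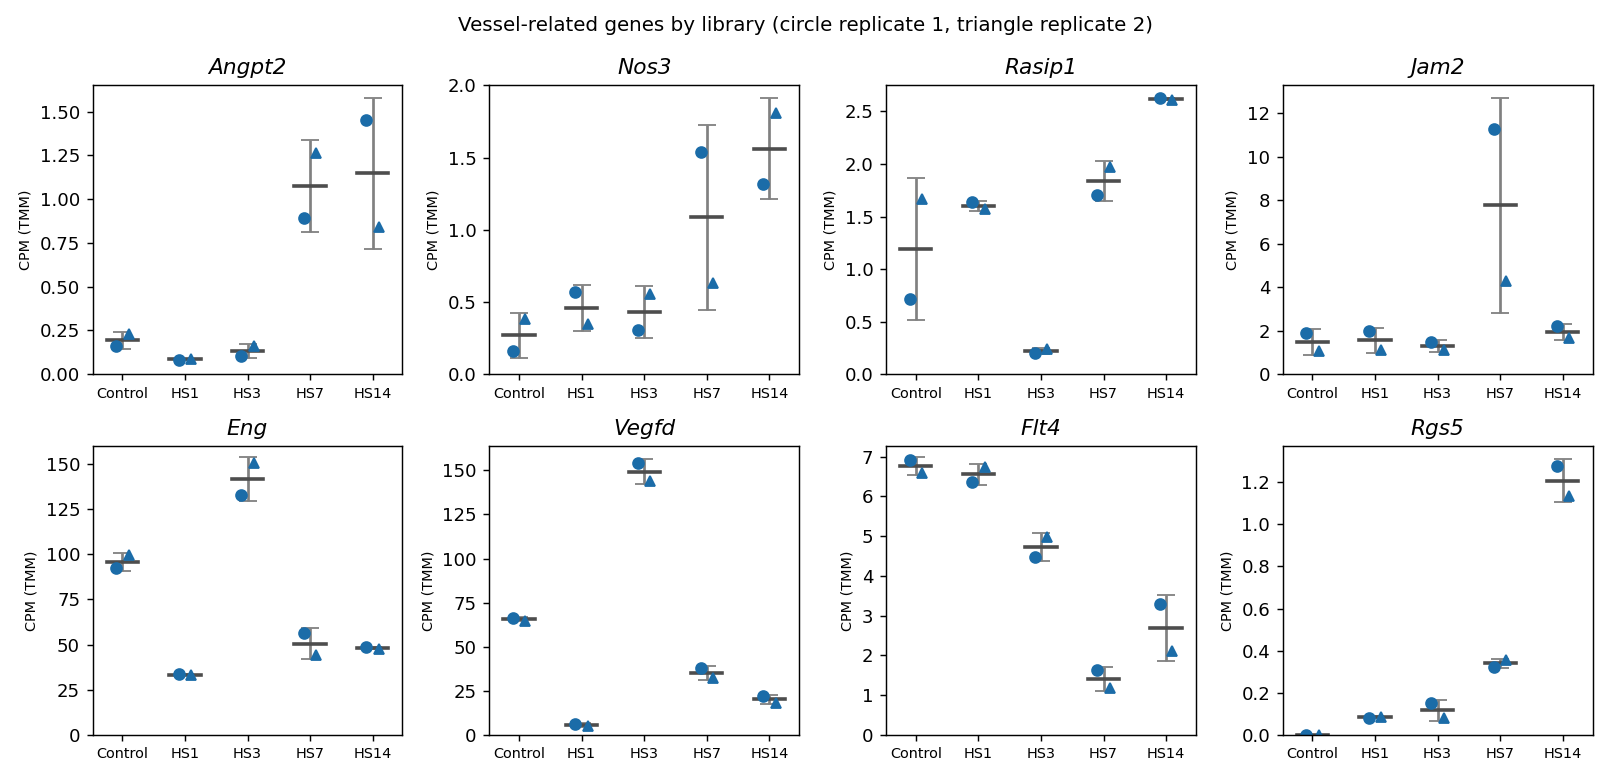
Level in CPM (TMM-scaled, y axis from 0) of 7 further vessel genes and of the pericyte marker *Rgs5* in the 10 libraries, with the mean and SD of the 2 libraries per group (circle, replicate 1; triangle, replicate 2). *Angpt2*, *Nos3* and *Rgs5* had their highest mean in HS14, and *Eng* and *Vegfd* in HS3.

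Markers of other cells that such a culture can hold were followed for the part of each list that had a symbol. Symbols came only from the DEG list, so each of these genes had been called against Control at some time. That they differed between the groups was thus fixed in advance, and markers with no row were not seen. Of 10 pericyte and smooth muscle markers, 3 had a symbol (*Rgs5*, *Pdgfrb* and *Notch3*). The 3 differed in course. *Rgs5* had 0 counts in both Control libraries, 8 and 9 counts in HS7 and 37 and 27 counts in HS14, where the 5 late members were also highest. *Pdgfrb* was highest in HS3, at 347.6 and 382.1 CPM, and lower in HS14, at 102.0 and 95.9 CPM, than in Control, at 170.4 and 164.5 CPM. *Notch3* was highest in HS7, at 139.5 and 132.0 CPM, against 29.6 and 33.3 CPM in Control and 78.7 and 56.5 CPM in HS14. The summed level of the list was 197.9 to 199.98 CPM in Control, 73.1 CPM in both HS1 libraries, 377 to 410 CPM in HS3, 218 to 261 CPM in HS7 and 154 to 182 CPM in HS14. Of 9 fibro-adipogenic markers, 6 had a symbol, and their sum was 2251 to 2252 CPM in HS1 and 14618 to 18478 CPM in HS3, the same lowest and highest groups as for *Kdr*. It was 6872 to 7336 CPM in Control, 8115 to 8165 CPM in HS7 and 2736 to 2916 CPM in HS14. Most of this sum was *Col1a1*, a collagen gene, at 14186 and 18060 CPM in HS3. *Dcn*, which encodes the proteoglycan decorin, was instead highest in HS14 together with the 5 late members. It was at 165.3 and 159.8 CPM in Control, 37.2 and 38.0 CPM in HS1, 80.2 and 74.9 CPM in HS3, 305.4 and 235.3 CPM in HS7, and 439.0 and 454.2 CPM in HS14. *Dcn* was higher in HS7 than in HS3 by 1.78 (standard error 0.12, edgeR adjusted p = 3.46e-07). *Pdgfra*, *Dpt* and *Cd55* were highest in HS3, while *Lum* overlapped between HS3 and HS7.

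The 3 myogenic markers with a symbol summed to 314 to 327 CPM in Control and were highest in HS7, at 900 to 1231 CPM. They were lowest in HS1, at 158 to 171 CPM, and in HS14 they were at 224 to 266 CPM, where the 5 late members were highest. Of 10 leukocyte markers 1 had a symbol, *Lyz2*, which was highest in HS3, at 4.47 and 7.31 CPM. Of 5 Schwann cell markers, *S100b* and *Ngfr* had one, and their sum was lowest in HS1 at 2.53 to 3.31 CPM and highest in HS3 at 33.7 to 35.5 CPM. *S100b* made up most of it. *Ngfr* was at 0.712 and 0.758 CPM in Control, 2.84 and 1.18 CPM in HS7, and 4.42 and 3.70 CPM in HS14, the groups in which the 5 late members were also high. It was higher in HS7 than in HS1 by 1.74 (standard error 0.50, edgeR adjusted p = 0.00969), just under the threshold of 0.01. Against HS3 the difference was 1.63 (standard error 0.54) and was not called (edgeR adjusted p = 0.0328). None of the 5 megakaryocyte markers, which bear on *Vwf*, had a symbol. The part of any of these cells in the levels of the members was not tested.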

How the data were processed

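Poly(A) RNA of cultured myoblasts was sequenced as 10 stranded libraries. The authors mapped the reads with STAR and counted them with featureCounts 1.6.4 (per the submitters' processing notes), and deposited raw counts per Ensembl gene with no normalization. The genome build is mRatBN7.2 in the methods and Rnor_6.0 in the processing notes, so no gene coordinates of the counts are printed. How pairs, strand and multiply mapped reads were counted is not given in the sources used here. The authors' list of DEGs holds fold changes and p-values, of which none was used; it gave symbols for 770 of 817 identifiers.

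From the counts, CPM (TMM) and fits were computed with edgeR 4.0.16, limma 3.58.1 and R 4.3.3. Each comparison was fitted on its own 4 libraries: filterByExpr (minimum count 10, total 15), TMM, robust quasi-likelihood test, two-sided, Benjamini-Hochberg adjustment over all genes tested. Every adjusted p is from this test unless DESeq2 1.42.0 is named. Genes were called at an adjusted p under 0.01 with an absolute log2 fold change above 1.5. Standard errors were derived from the test statistic. A test is given only between suspension times at which the gene had no row in the DEG list, which left 12 combinations of gene and time pair, 6 of them past the filter. Members, lists and tests were chosen with earlier results of these data known. The genes named are the members, genes of fixed lists with a symbol, and the 3 genes most like each member. Alternatives were DESeq2, RLE, no filter, all 10 libraries together, the replicate block, halved counts, another prior count, unscaled totals and leaving out each library. The edgeR fit with no filter gave some far smaller adjusted p, such as 2.49e-55 against 5.12e-07 for *Eng* in HS7 against HS3. Others were larger, such as 0.0642 against 0.0249 for *Cdh5* in HS3 against HS1. A smaller p with no filter is therefore not read as stronger support.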

Additional observations from a re-analysis of the deposited data

Results flagged for a closer look

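*Kdr* lay below both Control libraries in both HS1 libraries and above them in both HS3 libraries, so that its effects had opposite directions, 3.43 apart on the log2 scale. This difference was not tested, since both contrasts chose the gene. *Tie1* lay below Control in both HS1 libraries and above it in HS7 and HS14, 2.84 and 3.69 apart in the fits with no filter. The HS14 difference was not tested. The HS1 libraries had 6 counts each against 8 and 16 in Control, a ratio of summed counts of 0.545. Its 95% exact interval ran from 0.248 to 1.13, or from 0.168 to 1.57 with halved counts. The direction in HS1 was thus not settled at this depth.

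The differences called between suspension times were those of *Tie1* in HS7 against HS1 (2.83) and against HS3 (2.54), and of *Emcn* in HS7 against HS1, where the fitted 6.87 rests on 0 counts in HS1 and is set by the prior count.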

How the results depend on the processing

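Over the alternatives tried, the 6 tested differences kept their direction except *Kdr* in HS14 against HS7. When libraries were left out one at a time, its log2 fold change ranged from -0.046 (without HS7 replicate 2) to 0.13, *Cdh5* in HS3 against HS1 from 1.90 to 2.76, and *Tie1* in HS7 from 2.37 to 3.17 against HS1 and from 2.09 to 3.13 against HS3. *Emcn* in HS7 ranged from 6.87 to 6.94 against HS1, values set by the prior count, and from 2.82 to 6.81 against HS3. With all 10 libraries in one fit, *Cdh5* (2.26) and *Emcn* against HS3 (3.62, edgeR adjusted p = 0.00810) were called. The number of genes called in HS14 against HS7 was 267, and 149 to 397 with a library left out, 149 of them without HS14 replicate 2. The deviations of same-numbered libraries correlated by -0.0165 to 0.0417, so no shift shared by them was seen. This check cannot tell whether same-numbered libraries were paired in some other way. The replicate block gave 2.80 and 2.49 for *Tie1*, 2.28 for *Cdh5*, 6.87 and 3.64 for *Emcn* and 0.039 for *Kdr*, and changed none of the 6 calls. It gave 309 genes called in HS14 against HS7.

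*Cdh5* and *Emcn* did not pass the filter with halved counts, *Emcn* against HS1 did not pass it without HS7 replicate 2, and DESeq2 gave no adjusted p there. Of 146 values against Control under an alternative, 18 moved by more than the SD between libraries, all 18 with a Control library left out. Without Control replicate 1, 3 changed sign, namely *Kdr* in HS7 (-0.13) and HS14 (-0.10) and *Vwf* in HS3 (-0.17). With 2 libraries per group and counts under 20 in the low groups, depth limits the comparisons of the 5 late members among Control, HS1 and HS3.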
